A study of Mus musculus with 2 samples.

Results

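Acetylcholine reaches its targets through muscarinic receptors, which are G protein-coupled, and nicotinic receptors, which are ion channels built of 5 subunits. The data below describe 10 genes of this system in mouse cerebral cortex: the muscarinic receptors Chrm1 to Chrm5, the nicotinic subunits Chrna4, Chrna5, Chrna7 and Chrnb2, and Ache, which encodes acetylcholinesterase. The genes were taken by symbol from the transcript annotation and linked by gene identifier to the gene tables, and all 10 were found among 55536 annotated genes. The material was total RNA of left cerebral cortex, taken from 2 females of the hybrid strain B6CASTF1/J, a C57BL/6 by CAST cross, at 25 days of age; each library used 300 ng of RNA with ERCC spike-ins (synthetic RNAs). The animals, replicate 1 and replicate 2, form 1 group and have a separate animal number each, but both cite the same donor identifier, so the spread between them may be that of preparation only. There is no second condition, and with 2 libraries the smallest p an exact sign-flip permutation test can give is 0.5, so no test was made.

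In the cerebral cortex, acetylcholine is released mostly by axons of basal forebrain neurons, with a small share of cortical cells that make it themselves. M1, M3 and M5 receptors (Chrm1, Chrm3, Chrm5) couple to Gq, which activates phospholipase C, while M2 and M4 receptors (Chrm2, Chrm4) couple to Gi and Go, which inhibit adenylyl cyclase. Chrna4 and Chrnb2 subunits form the high-affinity nicotine receptor of the brain, Chrna5 joins it as an accessory subunit, and Chrna7 subunits form a receptor of their own kind. Acetylcholinesterase ends the signal by splitting the transmitter.

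The families differ in short stretches of coding sequence that carry their function. At the start of the sixth transmembrane helix, a region known from mutagenesis to help set the G protein partner, the 5 muscarinic receptors are shown over 18 codons with capitals on the 4 codons whose amino acid is shared within each coupling class and differs between the classes; 10 of the 18 codons encode the same amino acid in all 5.
Chrm1: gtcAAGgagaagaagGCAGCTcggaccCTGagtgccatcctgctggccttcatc
Chrm3: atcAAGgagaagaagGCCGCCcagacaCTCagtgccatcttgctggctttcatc
Chrm5: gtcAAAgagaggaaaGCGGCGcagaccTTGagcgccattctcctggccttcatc
Chrm2: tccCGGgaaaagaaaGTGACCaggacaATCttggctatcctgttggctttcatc
Chrm4: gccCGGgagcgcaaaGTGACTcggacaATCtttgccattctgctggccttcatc
In mm10 the stretches lie in coding exons at chr19:8679004-8679057 on the plus strand (Chrm1), chr13:9877499-9877552 on the minus strand (Chrm3), chr2:112479414-112479467 on the minus strand (Chrm5), chr6:36524347-36524400 on the plus strand (Chrm2) and chr2:91928425-91928478 on the plus strand (Chrm4). Sequences are GENCODE M21 transcripts. Over the whole translated proteins, Chrm2 and Chrm4 were identical at 61.7% of aligned residues and Chrm1 and Chrm3 at 60.8%, against 47.8% for Chrm5 and Chrm2, the lowest of the 10 muscarinic pairs. The longest run of identical bases between any pair of muscarinic coding sequences was 29, between Chrm1 and Chrm4.

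The nicotinic subunits differ at the acetylcholine site, where alpha subunits carry a pair of adjacent cysteines. They are shown over the 60 bases before the first transmembrane helix, with capitals on that codon pair, which Chrna4, Chrna5 and Chrna7 hold and Chrnb2 does not.
Chrna4: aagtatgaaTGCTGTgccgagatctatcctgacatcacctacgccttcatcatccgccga
Chrna5: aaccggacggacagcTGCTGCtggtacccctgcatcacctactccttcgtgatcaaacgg
Chrna7: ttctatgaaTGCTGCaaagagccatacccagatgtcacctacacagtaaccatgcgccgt
Chrnb2: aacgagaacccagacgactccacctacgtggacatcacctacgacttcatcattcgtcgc
They lie at chr2:181029233-181029292 on the minus strand (Chrna4), chr9:55004602-55004661 on the plus strand (Chrna5), chr7:63106113-63106172 on the minus strand (Chrna7) and chr3:89761311-89761370 on the minus strand (Chrnb2). Chrna4 was identical to Chrna5 at 54.5% of aligned residues and to Chrnb2 at 54.1%, while Chrna7 and Chrnb2 shared 37.4%. The longest run of identical bases among the 4 was 18, between Chrna5 and Chrnb2. Expected counts, which divide reads that match several places and so need not be whole, were whole to the 2 decimals given in both libraries for 9 of the 10 genes; Chrna4 had 1143.99 in replicate 1, next to a whole number.

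The libraries held 31191535 (replicate 1) and 27079700 (replicate 2) expected counts in annotated genes. A floor of 3 counts, about the upper 95% limit of the mean behind a count of 0, came to 0.0974 and 0.109 CPM (counts scaled to the library's size). Levels below are the deposited TPM (a transcript share corrected for length), and detected means that both libraries reach 1 TPM. Of 22015 nuclear protein-coding genes 58.7% were detected, with a median of 16.02 TPM. The tissue carried all 8 excitatory neuron markers (Camk2a 1120 and Slc17a7 617 TPM on average) and all 8 interneuron markers (Sst 189 and Gad1 160 TPM). Muscle markers were near 0 apart from Acta1, at 5.28 and 6.16 TPM.

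Of the 10 genes, 9 were detected, and Chrm5 was not. Chrm1 stood first. Ache, Chrm3 and Chrm4 followed, then Chrna4, Chrna7 and Chrnb2 near or below the median detected gene, and Chrm2, Chrna5 and Chrm5 came last. Ranges over the libraries overlapped between Ache and Chrm3 and between Chrm3 and Chrm4, and for no other pair of neighbours. The gap between Chrm4, whose lower value was 18.86 TPM in replicate 2, and Chrna4, whose higher value was 18.61 TPM in the same library, was narrow.

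**Figure D1:**
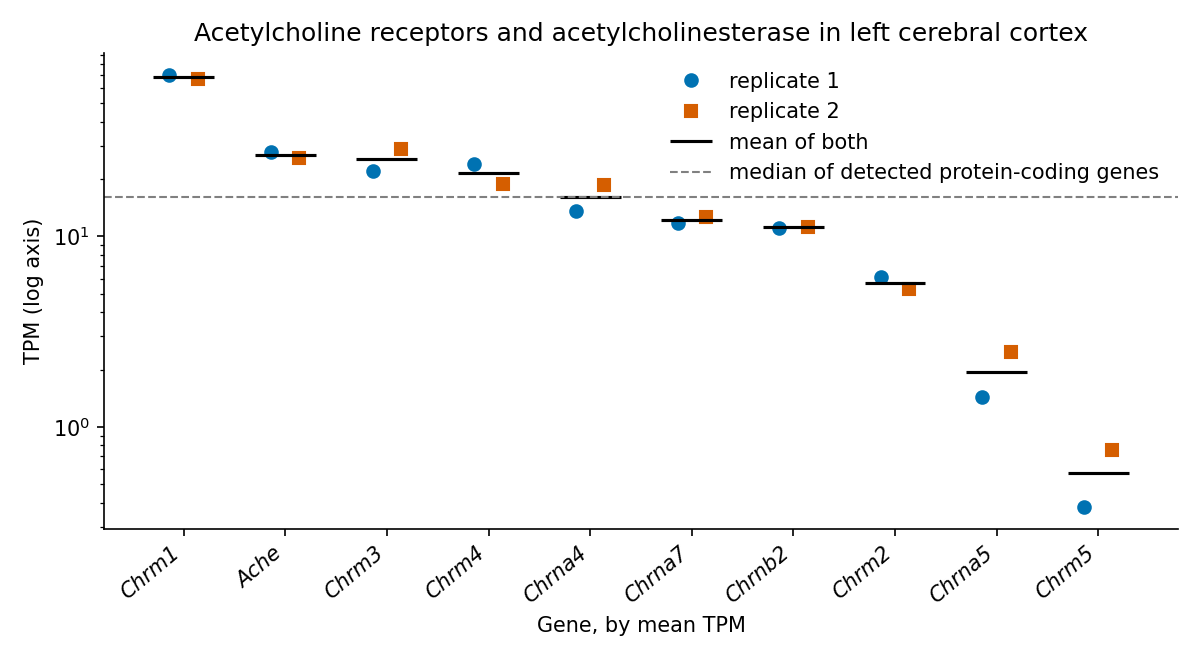
TPM (log axis) of the 10 genes in both libraries of left cerebral cortex, ordered by mean; circles are replicate 1, squares replicate 2, black bars the mean of both, and the dashed line the median detected nuclear protein-coding gene (16.02 TPM). Chrm1 lies above all others in both libraries, Chrna4 lies on either side of the dashed line, and Chrm5 stays below 1 TPM.

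Among the Gq-coupled receptors, Chrm1 (ENSMUSG00000032773.9, mm10 chromosome 19, 8663789 to 8683587, plus strand), the main muscarinic receptor of cortical pyramidal neurons, had 70.72 TPM from 6813 counts in replicate 1 and 67.45 TPM from 5511 counts in replicate 2. Its mean of 69.1 ± 2.31 TPM (SD, n = 2) put it at the 88.9th and 87.8th percentile of detected protein-coding genes, and 2.59-fold above Ache, the next gene in the order. Chrm3 (ENSMUSG00000046159.16, chromosome 13, 9875486 to 10360847, minus strand), best known for smooth muscle and glands but present in forebrain, had 22.12 and 28.64 TPM from 1835 and 1921 counts, a mean of 25.4 ± 4.61. Chrm3 thus lay below Ache and Chrm4 in replicate 1 and above both in replicate 2. Chrm5 (ENSMUSG00000074939.3, chromosome 2, 112479171 to 112480769, minus strand), known from midbrain dopamine neurons, had 0.38 and 0.76 TPM from 12 and 20 counts. Chrm3 exceeded Chrm5 58.2-fold in replicate 1 and 37.7-fold in replicate 2, on few Chrm5 reads.

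Among the Gi and Go-coupled receptors, Chrm4 (ENSMUSG00000040495.4, chromosome 2, 91927249 to 91928688, plus strand), an abundant receptor of striatal projection neurons, had 24.05 and 18.86 TPM from 671 and 442 counts, a mean of 21.5 ± 3.67. Chrm2 (ENSMUSG00000045613.9, chromosome 6, 36388084 to 36528414, plus strand), which serves as the autoreceptor on many cholinergic endings, had 6.13 and 5.28 TPM from 666 and 515 counts, a mean of 5.70 ± 0.60. Per length, Chrm4 was 3.92-fold above Chrm2 in replicate 1 and 3.57-fold in replicate 2. The counts themselves were close, because the annotated Chrm4 transcript has 1440 bases, all coding, against 5676 for the leading Chrm2 transcript. Without length correction the log2 ratio of Chrm4 over Chrm2 was 0.01 in replicate 1 and -0.22 in replicate 2, a mean of -0.10 in place of 1.90.

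Chrm1 made up 57.3% of the summed muscarinic TPM in replicate 1 and 55.7% in replicate 2 (sums 123.4 and 120.99 TPM). Chrm3 took 17.9 and 23.7%, Chrm4 19.5 and 15.6%, Chrm2 4.97 and 4.36% and Chrm5 0.308 and 0.628%. The Gq-coupled receptors together exceeded the Gi and Go-coupled ones 3.09-fold in replicate 1 and 4.01-fold in replicate 2, a log2 ratio of 1.82 ± 0.27 (SD, n = 2). Chrm1 exceeded Chrm3 by 1.68 and 1.24 on the log2 scale and Chrm4 by 1.56 and 1.84.

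Chrna4 (ENSMUSG00000027577.14, chromosome 2, 181018380 to 181043546, minus strand) led the nicotinic subunits with 13.59 TPM from 1143.99 counts in replicate 1 and 18.61 TPM from 1306 counts in replicate 2, a mean of 16.1 ± 3.55. Chrna7 (ENSMUSG00000030525.8, chromosome 7, 63098692 to 63212569, minus strand) had 11.74 and 12.66 TPM from 493 and 448 counts, a mean of 12.2 ± 0.65. Chrnb2 (ENSMUSG00000027950.7, chromosome 3, 89746195 to 89764632, minus strand) had 11.14 and 11.18 TPM from 1454 and 1229 counts, a mean of 11.2 ± 0.028. This was the smallest spread of the 10 genes in TPM, but in CPM the SD was 1.71 for Chrnb2 against 0.228 for Chrna7. The Chrnb2 locus overlaps Adar, an RNA-editing enzyme gene on the opposite strand with 5124 and 4408 counts, and whether the counting used strand is not given in the sources used here. Reads of the overlap therefore cannot be assigned with certainty.

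Chrna5 (ENSMUSG00000035594.10, chromosome 9, 54980880 to 55007779, plus strand), which is known from layer 6 neurons, was the scarcest nicotinic member, at 1.43 and 2.47 TPM from 58 and 87 counts. Chrna4 exceeded it 9.50-fold in replicate 1 and 7.53-fold in replicate 2. The partners of the main heteromer were closer to balance: Chrnb2 over Chrna4 was 0.820 in replicate 1 and 0.601 in replicate 2, a log2 ratio of -0.51 ± 0.32 (SD, n = 2). Without length correction its log2 was 0.35 in replicate 1 and -0.09 in replicate 2, so its direction changed in replicate 1 and in the mean, 0.13, but not in replicate 2; the leading Chrnb2 transcript has 6399 bases against 4565 for Chrna4. Chrna4 over Chrna7 was 1.16 and 1.47.

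The other 7 neuronal nicotinic subunits were scarce, and none was detected at 1 TPM in both libraries. Chrnb3 came nearest, with 0.98 and 0.92 TPM from 84 and 71 counts. Chrna3 had 26 and 30 counts, Chrna2 13.01 and 7, Chrna6 9 and 6, Chrna10 8 and 6, Chrnb4 2 and 0, and Chrna9 0 in both. In the FASTQ-based quantification 2 of the 7 passed 1 TPM in both libraries, Chrnb3 with 1.77 and 2.00 TPM and Chrna2 with 1.14 and 1.09 TPM, where Chrna2 had 58.5 and 49.4 estimated counts. FASTQ-based TPM ran a median of 1.54-fold above alignment-based TPM, so 1 TPM is a looser mark there. Together Chrna4, Chrna5, Chrna7 and Chrnb2 held 95.4% and 95.6% of the summed TPM of all 11 neuronal subunits (39.73 and 46.97 TPM). Of the 5 muscle subunits, Chrnb1 had 0.88 and 0.79 TPM, Chrna1 had 2 and 7 counts, Chrne 0 and 1, and Chrnd and Chrng had none. Set against each other, the summed muscarinic receptors exceeded the sum of Chrna4, Chrna5, Chrna7 and Chrnb2 3.26-fold in replicate 1 and 2.69-fold in replicate 2. The nicotinic sum is of subunits, several of which build a receptor, so these folds do not give a balance of receptors.

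**Figure D2:**
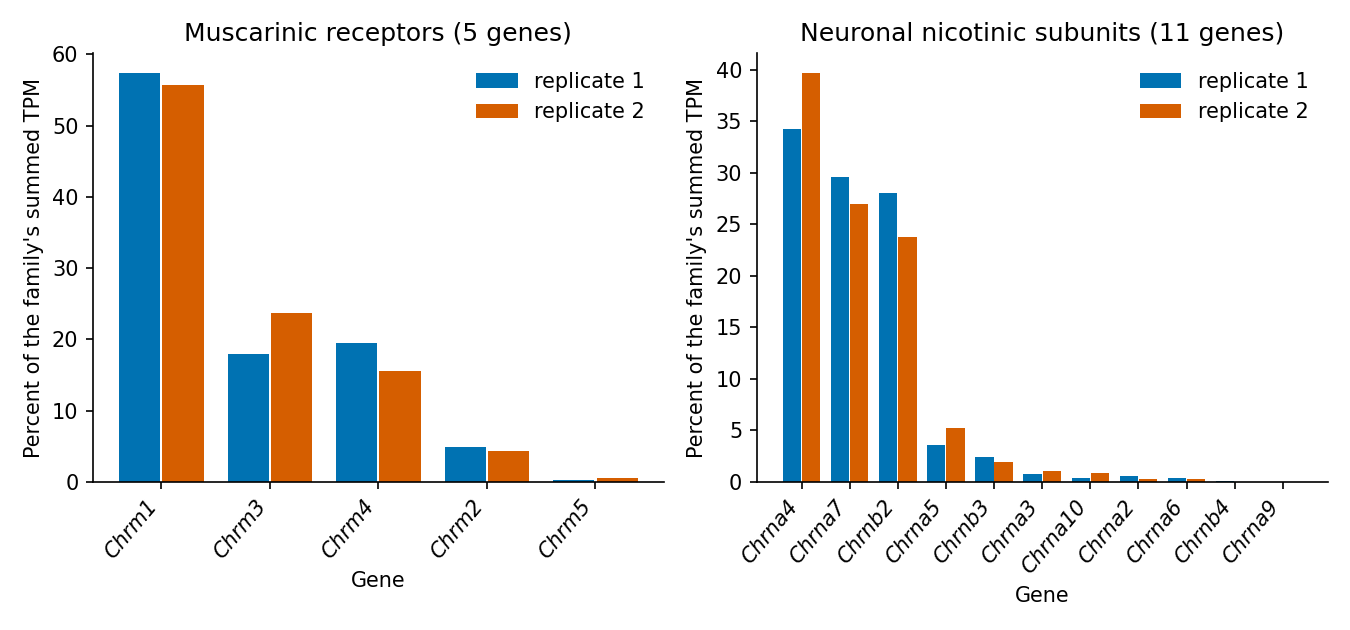
Percent of the summed TPM of each receptor family held by each gene, with 5 muscarinic receptors on the left and 11 neuronal nicotinic subunits on the right; bars are single libraries (replicate 1 and replicate 2). Chrm1 holds 57.3% and 55.7% of the muscarinic sum, whereas Chrna4, Chrna7 and Chrnb2 lie between 23.8% and 39.6% of the nicotinic sum.

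Ache (ENSMUSG00000023328.14, chromosome 5, 137287519 to 137294466, plus strand) had 27.59 TPM from 1361 counts in replicate 1 and 25.86 TPM from 1071 counts in replicate 2, a mean of 26.7 ± 1.22, above every nicotinic subunit in TPM. Without length correction, Ache averaged 41.6 CPM, below Chrnb2 at 46.0 in both libraries and below Chrna4 at 42.4 in replicate 2 only. The Ache relative Bche, butyrylcholinesterase, had 0.88 and 1.42 TPM from 103 and 131 counts. Ache exceeded Bche 31.4-fold in replicate 1 and 18.2-fold in replicate 2, and the mean log2 ratio of 4.58 ± 0.55 was lower under other processing, as far down as 3.38 without length correction. Prima1, which anchors the brain enzyme in the membrane, had 4.67 and 4.35 TPM, and Colq, which tethers the muscle enzyme, 0.75 and 1.19 TPM. The anchor partners bind the enzyme form that ends with the last coding exon below, shown because both leading Ache transcripts hold it; the capitals mark the stop codon.
Ache: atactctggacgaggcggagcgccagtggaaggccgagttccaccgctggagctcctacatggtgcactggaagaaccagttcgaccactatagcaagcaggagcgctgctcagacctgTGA
The coding part of this exon lies at chr5:137294117-137294238 on the plus strand, and its end is coding in 3 annotated Ache transcripts.

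Most of the 10 genes were carried by 1 transcript, with Ache, Chrm1 and Chrna5 the exceptions. Chrm4 and Chrm5 have a single annotated transcript, which is coding only, so reads from their untranslated regions have no annotated place. Chrna7-201 carried 94.7% and 93.8% of the gene's TPM, Chrnb2-201 97.1% and 96.2%, and Chrm2-202 92.9% and 100% (alignment-based quantification). Chrna4-201 carried 89.5% and 88.8%, and Chrm3-202 88.5% and 82.3%. In the FASTQ-based quantification, which is made directly from the reads, Chrna4-201 held 75.2% and Chrm3-202 73.2% on average. Chrm1 was divided between Chrm1-201, with 68.8% and 67.4%, and Chrm1-202, with 29.5% and 31.2%, which encode the same protein. Chrm1-203, whose annotated coding part has 222 bases, held 1.69% and 1.39% by alignment but 14.2% and 13.7% in the FASTQ-based quantification. A further 3 transcripts passed 10% of their gene: Chrm3-201, which is coding only, with 5.4% and 10.2% by alignment and 12.8% and 19.2% FASTQ-based; Chrm2-201, a noncoding transcript, with 7.08% and 0%, and 13.8% and 5.02% FASTQ-based; and Chrna4-205, with 8.09% and 8.18%, and 12.2% and 11.1% FASTQ-based.

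Ache-201 held 58.4% of Ache TPM in replicate 1 and 42.4% in replicate 2, and Ache-202, with the same coding sequence, 21.4% and 33.4%. The FASTQ-based quantification gave Ache-202 0.215% and 0.102%, and Ache-201 75.5% and 66.5%. A transcript with a retained intron, Ache-208, held 19.7% and 21.9%, and 24.3% and 24.6% in the FASTQ-based quantification. For Chrna5 the leading transcript depended on the library and on the quantification: Chrna5-202 led in replicate 1 with 57.0% and Chrna5-204 in replicate 2 with 53.8%, while the FASTQ-based quantification put Chrna5-204 first in both, at 62.4% and 64.3%. Chrna5 has few reads, and Chrna5-201, with 0% in both libraries by alignment, took 26.0% and 17.7% in the FASTQ-based quantification.

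**Figure D3:**
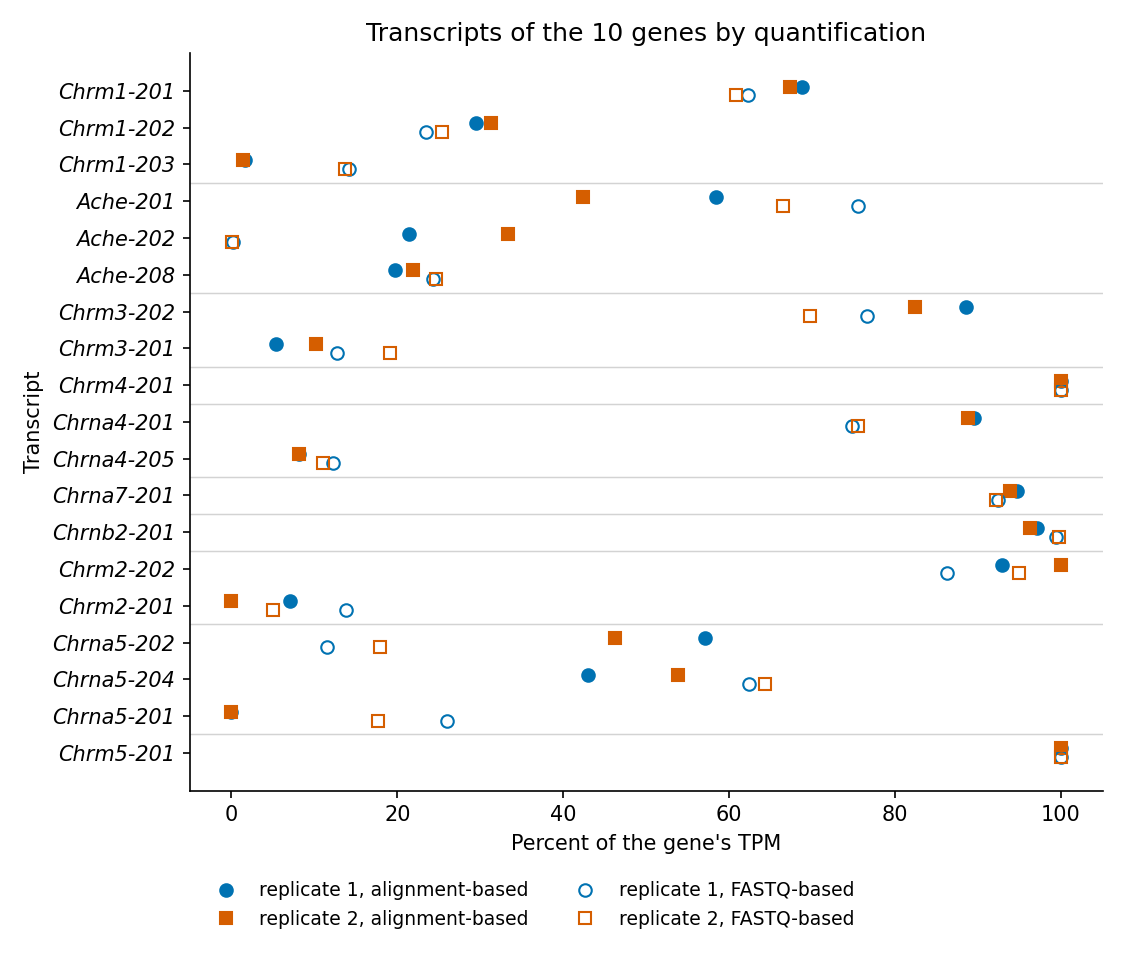
Percent of the gene's TPM in each transcript that reaches 10% in any library or quantification, for the 10 genes; filled symbols are alignment-based and open symbols FASTQ-based, circles replicate 1 and squares replicate 2. The quantifications lie far apart for Ache-202 and for the transcripts of Chrna5, and near each other for Chrna7-201 and Chrnb2-201.

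The libraries were then set against each other by a rule of size, at least 1.5-fold in TMM-scaled CPM at a mean CPM of at least 1, with exact 95% intervals that cover counting error only. By this rule 1.81% of 15682 genes were higher and 3.44% lower in replicate 1, and the median log2 ratio of all genes tested was 0.02. Of the 9 members with enough counts, 1, Chrna5, was lower in replicate 1 and 0 were higher. The median log2 ratio of the 10 genes was 0.02.

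The count ratio of Chrna5, replicate 1 over replicate 2, was 0.594 (95% interval 0.418 to 0.837). It passed the 1.5-fold mark with TMM, with size factors of DESeq2, with library totals and with spike-in totals, but not with the FASTQ-based counts. Of 7 layer 6 markers, 2, Cplx3 and Nxph3, were also lower in replicate 1 by the rule, against 3.44% of all genes tested. Tle4 had a ratio of 0.835. Foxp2, Syt6, Nxph4 and Ntsr1 had ratios of 1.32, 1.21, 1.15 and 1.10. The list's median ratio was 1.10, with 4 of 7 above 1, while its summed TPM was 55.59 in replicate 1 and 73.27 in replicate 2. The part of these markers in the Chrna5 difference was not tested. In bulk tissue, fewer cells of a type and less RNA per cell cannot be told apart.

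Below the 1.5-fold mark, Chrm4 had a ratio of 1.35 (1.20 to 1.53) and Chrna4 of 0.780 (0.720 to 0.845). Chrm3 had a ratio of 0.851 (0.798 to 0.908), and Chrm1, Ache and Chrm2 lay between 1.10 and 1.15. With TMM scaling the intervals of these 6 genes do not reach 1, so their libraries differed by more than counting error, but by less than the rule of size. The Chrm2 interval starts at 1.03, and its log2 ratio of 0.20 was 0.17 with library totals, so its place off 1 depends on the scaling. Over 18464 genes the chi-square between libraries was 8.51 for each degree of freedom, above counting error. This is an average over genes and does not give the share of all genes with intervals off 1. That share was not counted, so the number of members with such intervals is not read as a result about them. Chrnb2 at 1.05 and Chrna7 at 0.980 had intervals that reach 1. Striatal markers had ratios on the same side of 1 as Chrm4. By the rule 8 of the 11 were higher in replicate 1, against 1.81% of all genes tested, and all 11 had a ratio above 1. All 11 were detected, against 58.7% of nuclear protein-coding genes. Their summed TPM was 582 in replicate 1 and 391 in replicate 2. Ppp1r1b, the most abundant, had 165.77 and 115.34 TPM, and Penk 113.96 and 70.86 TPM. Their part in the Chrm4 ratio was not tested.

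Genes that make and load acetylcholine differed more than any of the 10 genes. Chat, the synthetic enzyme, had 77 counts in replicate 1 and 28 in replicate 2 (1.35 and 0.58 TPM), a ratio of 2.45 (1.57 to 3.92). Slc18a3, the vesicular transporter, had 56 and 20 counts, a ratio of 2.49 (1.47 to 4.39), and Slc5a7, the high-affinity choline transporter, 160 and 58 counts, a ratio of 2.46 (1.81 to 3.38). Slc18a3 lies within the Chat gene on the same strand, so their reads may not be independent. All 3 were higher in replicate 1 under every scaling tried and with the 2-fold mark. The main rule called 1.81% of all genes tested higher in replicate 1. Slc44a1, a general choline transporter, had 31.56 and 40.17 TPM, a ratio of 0.858 (0.809 to 0.911).

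Of the other cholinergic neuron markers, Isl1, with 58 and 10 counts, was higher in replicate 1 by the rule, and Lhx8 had 55 and 3 counts at a mean CPM below 1. Zic4 lay on the other side of 1, with 59 and 61 counts, a ratio of 0.862 (0.592 to 1.25). The list of 8, which includes Chat, Slc18a3 and Slc5a7, had 7 ratios above 1. Its summed levels were 9.18 and 5.54 TPM, of which Zic4 held 0.99 and 2.77 TPM. Of 6 oligodendrocyte markers, 3 were lower in replicate 1 by the rule, against 3.44% of all genes tested. Summed levels over the 6 were 1428 and 2246 TPM. The part of these lists and of the striatal one in the synthesis gene differences was not tested.

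**Figure D4:**
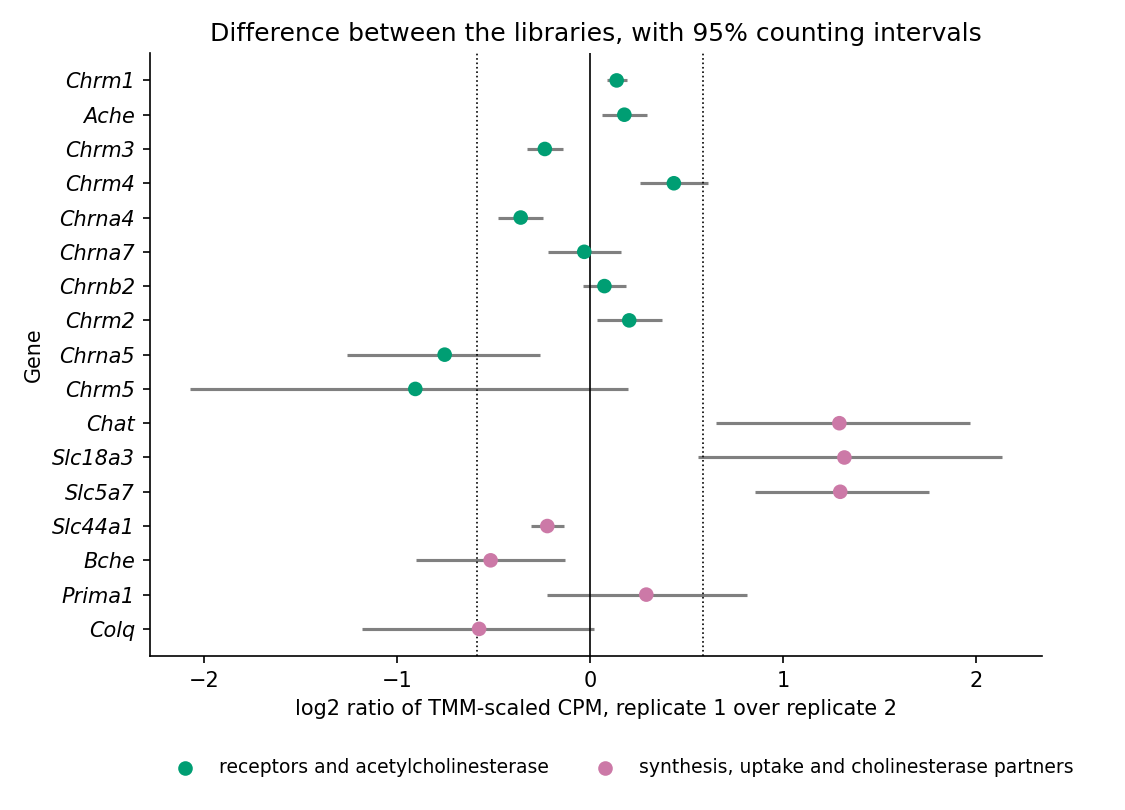
log2 ratio of TMM-scaled CPM, replicate 1 over replicate 2, with exact 95% counting intervals (grey lines), for the 10 genes (green) and for genes of acetylcholine synthesis, uptake and breakdown (pink); dotted lines mark 1.5-fold either way. Chat, Slc18a3 and Slc5a7 lie at ratios of 2.45 to 2.49, while 8 of the 10 green points lie within the dotted lines.

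All 8 nicotinic chaperones and Ly6 proteins, which assemble or modulate nicotinic receptors, were detected, and none was called either way: Ly6h had 148.79 and 141.83 TPM, Ly6e 147.65 and 142.92, Lynx1 115.95 and 117.44, and Lypd1 56.53 and 42.41. Shares over all genes were 58.7% detected, 1.81% called higher and 3.44% called lower in replicate 1, so a short list without a call is not unusual. All 9 genes of the Gq list were detected and none was called, led by Rgs4, a regulator that speeds the G protein's return to rest, with 245.91 and 239.75 TPM. Plcb1, a phospholipase C, had 87.25 and 92.72 TPM, and Gnaq, the Gq alpha subunit, a mean of 73.3 TPM. All 9 genes of the Gi and Go list were detected and none was called, led by Gnao1, the Go alpha subunit, with 325.28 and 347.16 TPM. Adcy1, an adenylyl cyclase, had 106.93 and 133.55 TPM, Gnai2 96.45 and 101.21, and Gnai1 70.98 and 74.69. The median level was 38.8 TPM for the nicotinic partners, 67.8 TPM for the Gq list and 71.4 TPM for the Gi and Go list, against 14.2 TPM for the 10 genes themselves and 16.02 TPM for all detected protein-coding genes.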

How the data were processed

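The 2 libraries of left cerebral cortex were analysed as 1 group. Per the descriptions accompanying the files, the authors quantified them on mm10 with GENCODE M21; the sources used here name no aligner, quantifier or strand setting. The deposited gene tables hold expected counts and TPM per the file headers, the deposited transcript table gives each transcript's percent of its gene's TPM, and the deposited FASTQ-based table gives estimated counts and TPM per transcript, summed per gene here.

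Entries without an annotated gene (26345 of 81881, spike-ins included) held 0.350% and 0.378% of counts and stayed out of library sizes. Expected counts were rounded for TMM factors (0.987 and 1.01; edgeR 4.0.16, limma 3.58.1, R 4.3.3); size factors of DESeq2 1.42.0 were tried too. Other steps used scipy 1.17.1, matplotlib 3.10.9, pandas 2.3.3 and numpy 2.4.6 in Python 3.11.15. Over 18464 genes the chi-square between libraries was 8.51 for each degree of freedom, above sampling noise. Reads carry no molecular identifiers, so intervals and floors cover counting error only. The genes, lists and ratios were chosen with earlier results of these data known; 138 list genes matched and 1, Ctgf, did not. Named are all 10 genes, all other nicotinic subunits, synthesis, uptake and cholinesterase-partner genes, up to 4 leading genes of other lists and transcripts of at least 10% of a gene's TPM. Foxp2, Syt6, Ntsr1, Tle4, Nxph4, Cplx3, Nxph3, Lhx8, Isl1 and Zic4 were named after their values were seen. A gene that the rule would name is not reported here. Alternatives changed the quantification, length correction, scaling set, pseudocount, filter, fold and detection threshold, and left out each replicate. The mm10 assembly is C57BL/6, and reads of the CAST allele were not separated.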

Additional observations from a re-analysis of the deposited data

How the results depend on the processing

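Without length correction (CPM in place of TPM), only 3 of the 10 genes kept their place in the order, Chrm1 held 66.8% of the muscarinic sum in place of 56.5%, and the log2 ratio of M1, M3 and M5 over M2 and M4 receptors was 2.83 in place of 1.82. The mean log2 ratio of Chrnb2 over Chrna4 reversed, to 0.13 in place of -0.51, and that of Chrm4 over Chrm2, to -0.10 in place of 1.90, each in 1 library only (0.35 and -0.09 in replicates 1 and 2 for Chrnb2 over Chrna4, 0.01 and -0.22 for Chrm4 over Chrm2); longer transcripts give more reads, which CPM does not correct. Ache over Bche, 4.58 on the log2 scale, was 3.38 without length correction, 4.02 with FASTQ-based TPM and 3.70 as log2(TPM + 1), and Chrm1 was 57.9% of the muscarinic sum with FASTQ-based TPM; the cause was not tested. Of the members, 1 (Chrna5) passed the size rule, 0 did with FASTQ-based counts or the 2-fold mark, and 2 (Chrm5 as well) with no filter on low counts. Over all genes, the main rule called 284 higher and 540 lower in replicate 1, of 15682. With FASTQ-based counts these were 300 and 839 of 16908, and at the 2-fold mark 86 and 68 of 15682. With no filter they were 3991 and 5123 of 28325, so passing the rule was common there. The 3 synthesis and uptake genes stayed higher in replicate 1 in all 6 alternatives. Of 49 alternative values for the main results, 38 stayed within the replicate spread or 1.5 times the main count; a single value left after dropping 1 of 2 replicates lies within that spread by construction. Rescaling TPM over nuclear protein-coding genes kept all 10 places but raised the levels (Chrm1 averaged 151 in place of 69.1 TPM, Ache 58.6 in place of 26.7, Chrm5 1.24 in place of 0.57), so levels depend on the set of genes scaled over. FASTQ-based TPM exceeded alignment-based TPM by a median of 1.54-fold, so levels of the quantifications are compared by order and ratio only. Of the other 7 neuronal nicotinic subunits, 2 were detected with FASTQ-based TPM and 1 at 0.5 TPM, in place of 0. Both are looser marks than 1 TPM in the alignment-based quantification. Chrm5, Chat and Slc18a3 rest on 12 to 77 counts a library. No paired analysis was possible because the samples form 1 group.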

Other observations

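VIP interneurons respond to acetylcholine through nicotinic receptors. Of their 6 markers 6 were detected, against 58.7% of all nuclear protein-coding genes. Vip itself had 25.04 TPM in replicate 1 and 24.02 TPM in replicate 2. Of the 6, Calb2, with a count ratio of 1.63 (95% counting interval 1.34 to 1.98), and Crh, with 1.51 (1.17 to 1.97), were higher in replicate 1 by the 1.5-fold rule. The ratios of Htr3a (0.935), Prox1 (0.823, 0.724 to 0.934) and Npas1 (0.827) were below 1, and the list's median ratio was 1.02. Of 8 general interneuron markers, Gad2 was higher in replicate 1, at 60.73 and 43.41 TPM, while Sst had 190.76 and 186.51 TPM. None of the 8 excitatory neuron, 7 astrocyte, 6 microglia and 7 vascular markers passed the rule in either direction, against 1.81% higher and 3.44% lower over all genes. Of the haemoglobin genes, which mark blood, Hbb-bs had 222.69 and 170.44 TPM and Hba-a1 218.67 and 161.34 TPM, and Hbb-bt alone passed the rule, higher in replicate 1 at a ratio of 1.52; reads of these near-identical copies are divided between them, so single values are uncertain.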
